A study of Mus musculus with 12 samples.

Results

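The type I interferon response was followed through 35 genes in RNA-seq of the cortex of 12 mice. The members were taken from the raw count table by gene symbol, and all 35 were found among its 24062 symbols. They comprise 6 transcription factors, 3 IFIT proteins, 2 OAS proteins, 2 RNA sensors, 6 proteins of ISG15 conjugation and ADP-ribosylation, 11 other effectors and 5 proteins of antigen presentation. Each mouse gave 1 library of total RNA, and all mice were 9 months old. The 4 groups of 3 mice were WT (non-transgenic, Tia1+/+), Tia1+/- (non-transgenic, with 1 functional allele of the RNA-binding protein TIA1, titled TIA1_het), PS19 (hemizygous for a transgene of human tau with the P301S mutation, Tia1+/+, titled P301S) and P301S Tia1+/- (both, titled P301S-TIA1_het). The transgene is driven by the Prnp promoter, the PS19 line is B6;C3, and the Tia1 knockout came from a B6.129S2 line backcrossed to C57BL/6J. Mice with end-stage symptoms were left out by the study. The question here was how far the interferon response differed between the genotypes, and how far between mice of 1 genotype.

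Type I interferons, chiefly interferon beta and the interferons alpha, are secreted by cells that detect foreign or misplaced nucleic acid. They bind a receptor of IFNAR1 and IFNAR2, whose kinases JAK1 and TYK2 phosphorylate STAT proteins, STAT2 among them, and STAT2 joins IRF9 in a complex that binds the interferon-stimulated response element in the promoters of its targets. In the brain, microglia, astrocytes, endothelium and neurons can all respond, and the products of the targets block viral entry, translation and replication, tag proteins with ISG15 and raise antigen presentation.

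Promoter sequences were examined because many members were high together in the same libraries. RefSeq windows on GRCm38.p6 were found for 28 of the 35 members, and no entry was found for Usp18, Parp9, Parp14, Mx1, Mx2, Rtp4 and Ifi27. The letters GAAANNGAA, the core of the response element, or TTCNNTTTC on the other strand, were searched in the 250 bases before the start, with overlapping matches counted. They were found in 11 of the 28 members (39.3%) and in 8.18% of 27025 genes, and at least 2 matches were found in 5 members (17.9%) and in 0.555% of all genes. Isg15, Ifit3 and Oas1a are shown because they carry several matches and had as their 4 highest libraries those described below. Ifit2, a neighbour of Ifit3 with another pattern, and Irf3, a factor that acts before interferon is made, are shown because their windows hold no match and their highest and lowest libraries differed by 1.72-fold and 1.70-fold only, although Irf3 had the same 4 highest libraries. Matches and that pattern did not coincide closely: those libraries were the 4 highest for 7 of the 11 members with a match and for 6 of the 17 without, and Ifi44 and Irf7, which had no match, had wider ranges than Ifit1 and Ifit3. The windows are chr4:156200819-156201068 (minus strand) for Isg15, chr19:34583279-34583528 (plus) for Ifit3, chr5:120907526-120907775 (minus) for Oas1a, chr19:34550444-34550693 (plus) for Ifit2 and chr7:44997398-44997647 (plus) for Irf3. Each is written 5′ to 3′ toward the gene, with the matches in capitals.
Isg15: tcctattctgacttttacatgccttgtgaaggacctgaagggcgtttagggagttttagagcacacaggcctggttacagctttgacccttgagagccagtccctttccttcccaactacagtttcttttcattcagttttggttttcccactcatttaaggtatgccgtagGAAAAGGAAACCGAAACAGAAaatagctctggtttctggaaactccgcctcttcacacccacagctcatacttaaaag
Ifit3: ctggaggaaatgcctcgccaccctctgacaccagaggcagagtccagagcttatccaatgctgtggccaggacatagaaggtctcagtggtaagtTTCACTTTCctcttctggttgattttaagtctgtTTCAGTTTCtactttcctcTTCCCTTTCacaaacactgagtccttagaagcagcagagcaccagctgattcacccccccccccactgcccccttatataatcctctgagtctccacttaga
Oas1a: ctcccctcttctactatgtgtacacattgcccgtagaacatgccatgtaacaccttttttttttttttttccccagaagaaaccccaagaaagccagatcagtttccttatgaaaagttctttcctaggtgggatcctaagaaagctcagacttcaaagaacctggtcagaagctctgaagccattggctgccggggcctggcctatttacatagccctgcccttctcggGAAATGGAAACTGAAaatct
Ifit2: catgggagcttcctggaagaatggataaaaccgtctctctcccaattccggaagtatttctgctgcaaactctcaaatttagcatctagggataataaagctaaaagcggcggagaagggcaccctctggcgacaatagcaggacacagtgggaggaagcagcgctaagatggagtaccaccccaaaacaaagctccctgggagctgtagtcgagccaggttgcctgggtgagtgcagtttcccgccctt
Irf3: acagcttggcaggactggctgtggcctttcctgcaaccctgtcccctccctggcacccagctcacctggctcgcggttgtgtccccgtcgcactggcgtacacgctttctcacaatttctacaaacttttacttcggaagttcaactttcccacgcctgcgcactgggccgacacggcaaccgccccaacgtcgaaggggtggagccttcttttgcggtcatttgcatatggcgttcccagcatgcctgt
The first base of the matches lay 66 to 78 bases before the start of Isg15, 102 to 155 before that of Ifit3 and 14 to 20 before that of Oas1a. A second RefSeq start of Ifit2 had no match either. A match is a stretch of letters, and binding was not measured.

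All 35 members passed the filter on low counts, with 15440 genes in all, but several were near the limit of measurement. Raw counts ran from 2 to 51 per library for Mx1, an antiviral GTPase gene that is disrupted in most laboratory strains, from 3 to 61 for Oas1a and from 5 to 94 for Isg15. Mx1 had 3 counts or fewer in 3 libraries and Oas1a in 2, so their levels in those libraries could not be told from 0. Per kilobase of exon, B2m, the invariant chain of class I molecules, was the most abundant member, at a mean of 81.8 CPM per kb over the 12 libraries, where CPM is the count scaled to library size after TMM normalization. Ifi27, Ifit3 and Ifitm3 followed at 18.1, 9.70 and 8.69 CPM per kb, and Mx1 and Ifi44 were the lowest at 0.193 and 0.328. The interferon genes themselves were close to absent: Ifnb1 had 0 counts in all 12 libraries, and the highest count of any of 16 ligand genes in a library was 4, for Ifnz. The ligand genes include Ifng, Ifnl2 and Ifnl3, which are not of type I.

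Library totals ran from 11978962 to 19146484 counts, and PS19 replicate 1 was the deepest. In the deposited labels, the genotype field of each Tia1+/- library carries the P301S Tia1+/- genotype and the reverse, and groups were taken from titles. The level of Tia1 did not separate its genotypes: it was at 75.4 to 93.8 CPM in WT and 61.4 to 79.8 CPM in Tia1+/-, and at 70.8 to 77.9 CPM in PS19 and 72.6 to 77.8 CPM in P301S Tia1+/-. Prnp, whose promoter drives the transgene, was at 2018 to 2158 CPM in PS19, above 1334 to 1879 CPM in WT, but at 1404 to 1535 CPM in the libraries labelled P301S Tia1+/-, against 996 to 1922 CPM in Tia1+/-. Mouse Mapt was at 439 to 462 CPM in PS19 and 256 to 413 CPM in WT, and at 336 to 357 CPM in P301S Tia1+/- and 344 to 502 CPM in Tia1+/-. Neither gene was raised in the libraries labelled P301S Tia1+/-, and it is not given whether reads of the transgene were counted under either, so the tau label of that group is not borne out by these counts and each comparison with it below is between libraries so labelled. Xist was at 217 to 367 CPM and the Y-linked gene Ddx3y at 0.119 CPM or less in all 6 libraries of both Tia1+/- groups, against 0.783 CPM or less and 119 to 169 CPM in the other 6, although the methods describe male mice. Tia1 genotype and this difference cannot be told apart here, and this touches every comparison with Tia1+/- below. Libraries also differed in tissue content: 8 olfactory bulb markers summed to 1023 CPM in WT replicate 1 and 634 to 780 CPM in P301S Tia1+/-, against 5.92 to 14.6 CPM in PS19, and 5 striatal markers summed to 611 CPM in Tia1+/- replicate 3 against 40.1 to 105 CPM elsewhere. In such bulk samples, fewer cells of a type and less RNA per cell cannot be told apart.

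The interferon genes varied mainly between mice of the same genotype. In each group 1 library was high for most members: WT replicate 1, Tia1+/- replicate 3, PS19 replicate 1 and P301S Tia1+/- replicate 3. These libraries were picked out after the members' values were seen, so the counts that follow describe them and are no test. WT replicate 1 was above both of its group mates in 33 of the 35 members, Tia1+/- replicate 3 in 29, PS19 replicate 1 in 35 and P301S Tia1+/- replicate 3 in 32. Over all genes tested, the same held for 43.0%, 42.6%, 35.3% and 37.1% of genes. The median ratio of a member to the mean of its group mates was 2.12 in WT replicate 1, 1.66 in Tia1+/- replicate 3, 2.55 in PS19 replicate 1 and 1.54 in P301S Tia1+/- replicate 3.

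**Figure D1:**
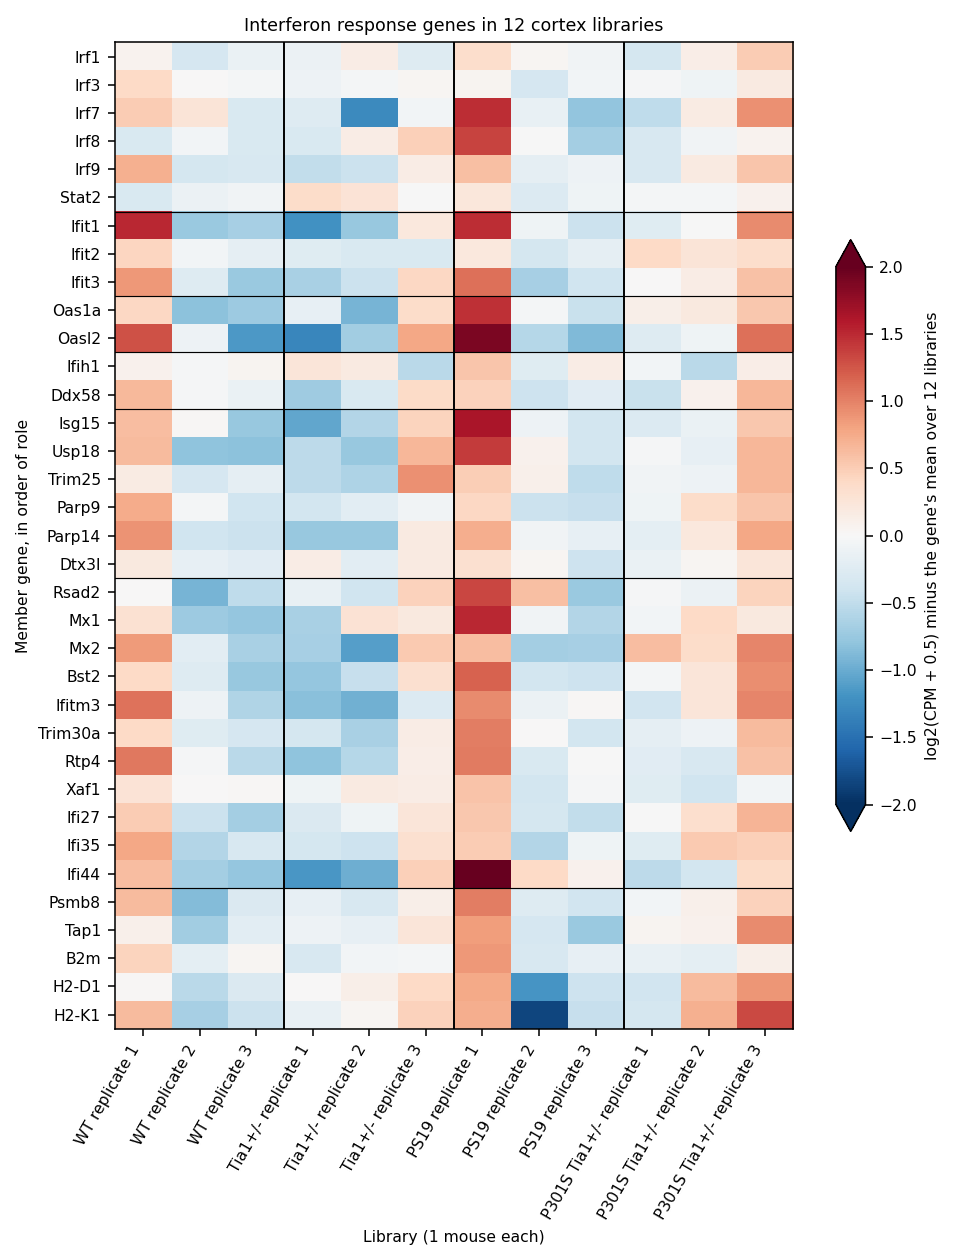
Heat map of the 35 members (rows, ordered by role) in the 12 libraries (columns, 1 mouse each), coloured by log2(CPM + 0.5) minus the gene's mean over the libraries, with the darkest shades at a difference of 2 or more. A red column stands in each group, at WT replicate 1, Tia1+/- replicate 3, PS19 replicate 1 and P301S Tia1+/- replicate 3, and PS19 replicate 1 is the highest library of 17 members.

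For 15 of the 35 members (42.9%), those libraries were exactly the 4 highest of the 12, and for 30 (85.7%) at least 3 of the 4 highest were among them. The shares over all 15440 genes were 0.855% and 13.2%. The 15 members were Irf3, Ifit1, Ifit3, Oas1a, Oasl2, Ddx58, Isg15, Usp18, Trim25, Dtx3l, Bst2, Trim30a, Rtp4, Psmb8 and Tap1. A median of 18.3% of a member's variance on the log2 scale lay between the genotype groups, against 39.8% over all genes. The median within-group SD was 0.57 log2 units in the members and 0.20 over all genes, and the members were also lower in level, with a median mean log2 level of 2.43 against 4.48. Ifit2, with 62.0% of its variance between groups, and Stat2, with 47.5%, had the highest shares, and Dtx3l, with 4.52%, the lowest.

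**Figure D2:**
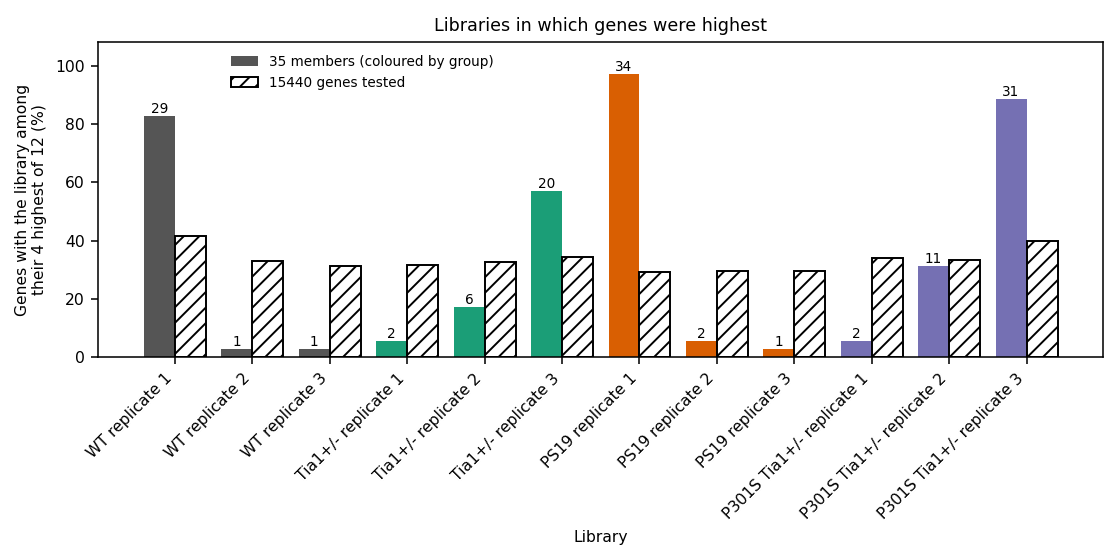
Percentage of genes (y axis) that have a library among their 4 highest of 12, for the 35 members (filled bars, coloured by group, with the number of members above) and for all 15440 genes tested (hatched bars). PS19 replicate 1 is among the 4 highest for 34 members, P301S Tia1+/- replicate 3 for 31, WT replicate 1 for 29 and Tia1+/- replicate 3 for 20, while no other library exceeds 11.

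The IFIT proteins, which bind foreign RNA and block its translation, lie together on chromosome 19, with Ifit2 at 34550694-34576419, Ifit3 at 34583531-34588731 and Ifit1 at 34640871-34650009 (GENCODE M21, GRCm38), and did not share 1 pattern. Ifit1 was at 15.5, 2.88 and 3.04 CPM in WT replicates 1 to 3, at 1.93, 2.82 and 5.99 CPM in Tia1+/-, at 15.2, 4.80 and 3.67 CPM in PS19 and at 4.28, 5.10 and 10.3 CPM in P301S Tia1+/-. Ifit3 was at 28.5, 12.8 and 9.05 CPM in WT, at 9.66, 11.4 and 20.7 CPM in Tia1+/-, at 33.7, 9.53 and 11.6 CPM in PS19 and at 15.5, 17.2 and 23.3 CPM in P301S Tia1+/-. Both were highest in the same library of each group, and the groups overlapped. Ifit2 was at 35.5, 25.4 and 23.2 CPM in WT, at 22.3, 21.2 and 21.2 CPM in Tia1+/-, at 30.6, 20.7 and 23.1 CPM in PS19 and at 34.8, 31.5 and 33.8 CPM in P301S Tia1+/-. Here the replicates of Tia1+/- and of P301S Tia1+/- lay close together, and these groups did not overlap with each other.

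Among the proteins of ISG15 conjugation and ADP-ribosylation, Isg15, a ubiquitin-like tag, was at 2.16, 1.27 and 0.532 CPM in WT replicates 1 to 3, at 0.345, 0.657 and 1.87 CPM in Tia1+/-, at 4.88, 1.12 and 0.843 CPM in PS19 and at 0.943, 1.08 and 2.02 CPM in P301S Tia1+/-. Usp18, which removes that tag and damps the receptor, was at 3.36, 0.930 and 0.913 CPM in WT, at 1.24, 0.985 and 3.48 CPM in Tia1+/-, at 6.08, 2.16 and 1.45 CPM in PS19 and at 1.95, 1.74 and 3.45 CPM in P301S Tia1+/-. In both genes the high library of a group exceeded the mean of its mates by 1.87-fold or more, and the other 8 libraries were all lower than the high library of their group. Trim25, a ubiquitin ligase that acts on RIG-I, was the only member highest in Tia1+/- replicate 3, at 9.54 CPM against 2.96 to 7.91 CPM in the other libraries. Parp14, a mono-ADP-ribosyltransferase, was at 11.8, 4.48 and 4.41 CPM in WT, at 3.38, 3.42 and 6.96 CPM in Tia1+/-, at 10.4, 5.76 and 5.36 CPM in PS19 and at 5.28, 7.14 and 10.8 CPM in P301S Tia1+/-. Parp9 ranged from 3.43 to 8.48 CPM and its partner Dtx3l, an E3 ligase, from 6.20 to 10.7 CPM. These genes overlap on opposite strands of chromosome 16, and since the strand setting of the counting is not given in the sources used here, their reads could not be told apart in the overlap.

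The widest ranges were found among antiviral effectors. Ifi44, an effector of unsettled function, was at 2.40, 0.677 and 0.608 CPM in WT replicates 1 to 3, at 0.345, 0.460 and 2.13 CPM in Tia1+/-, at 10.3, 2.0 and 1.51 CPM in PS19 and at 0.818, 0.960 and 1.96 CPM in P301S Tia1+/-. Its highest library exceeded its lowest by 29.8-fold, and PS19 replicate 1 alone lay above 2.40 CPM. Raw counts of Ifi44 ran from 5 to 198 per library, so its lowest levels, and with them this ratio, are imprecise. Rsad2, or viperin, which makes a chain-terminating nucleotide, was at 2.08, 0.846 and 1.29 CPM in WT, at 1.79, 1.45 and 3.03 CPM in Tia1+/-, at 5.98, 3.36 and 1.02 CPM in PS19 and at 2.01, 1.86 and 2.97 CPM in P301S Tia1+/-. Its groups overlapped. Ifitm3, which blocks the entry of viruses from endosomes, was at 11.7, 4.82 and 3.27 CPM in WT, at 2.69, 2.43 and 4.25 CPM in Tia1+/-, at 10.5, 4.80 and 5.30 CPM in PS19 and at 3.90, 6.30 and 10.8 CPM in P301S Tia1+/-. Replicates 1 and 2 of Tia1+/- were the lowest libraries, and the groups overlapped. Mx2, a dynamin-like GTPase, was at 3.68, 1.52 and 0.989 CPM in WT, at 0.966, 0.591 and 2.83 CPM in Tia1+/-, at 3.07, 0.961 and 0.964 CPM in PS19 and at 3.08, 2.52 and 4.10 CPM in P301S Tia1+/-. In P301S Tia1+/- all 3 libraries of Mx2 were above 2.5 CPM. Mx2 is annotated as a polymorphic pseudogene, whose intact form depends on the strain. Oasl2, a relative of the synthetases that activate RNase L, ranged from 0.897 to 12.3 CPM, 13.7-fold, and Oas1a from 0.197 to 3.17 CPM. Bst2, or tetherin, ranged from 0.966 to 5.20 CPM, Rtp4 from 1.31 to 6.08 CPM, Trim30a from 2.10 to 7.79 CPM, Ifi27 from 15.7 to 40.7 CPM, Ifi35 from 1.68 to 5.12 CPM and Xaf1, an inducer of apoptosis, from 3.90 to 8.11 CPM.

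**Figure D3:**
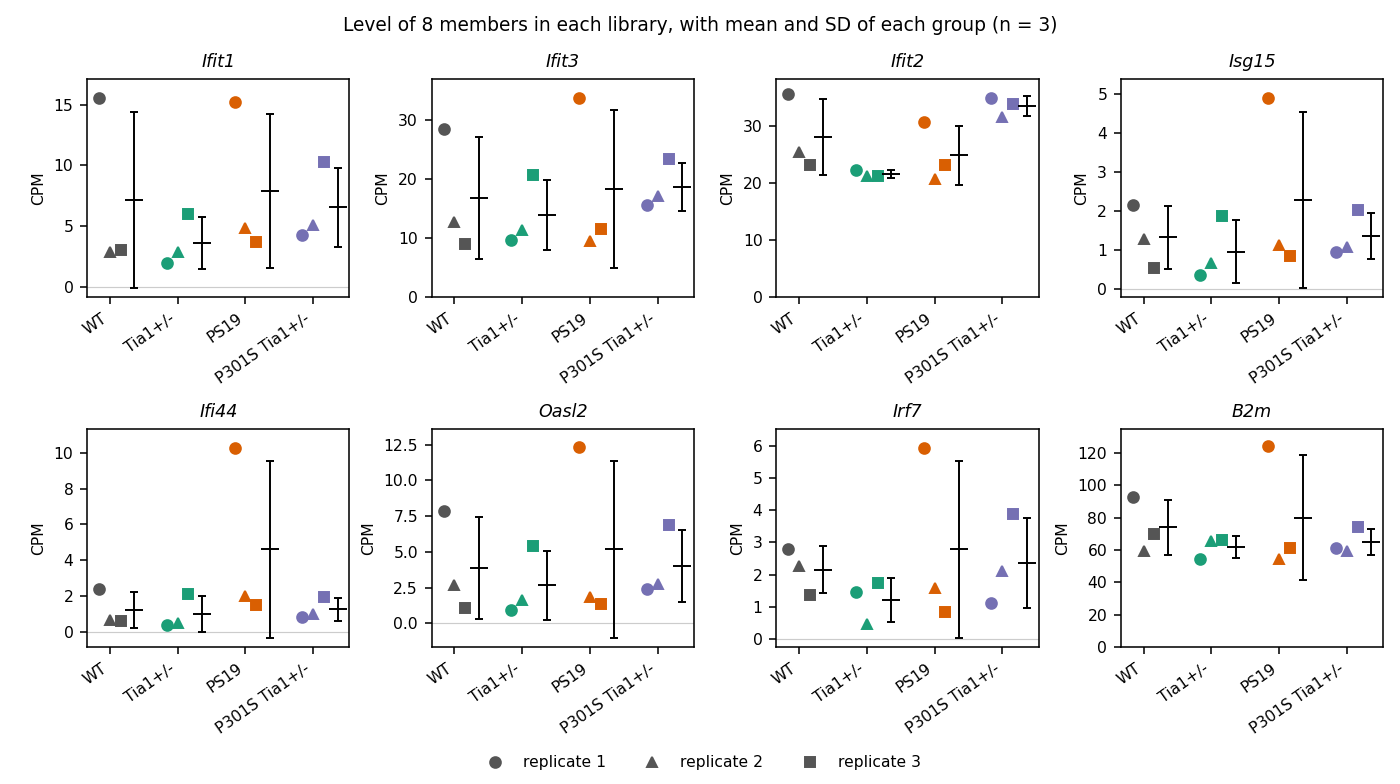
Level in CPM (linear y axis that includes 0) of 8 members in each library, by group, with replicate 1 as a circle, 2 as a triangle and 3 as a square, and the mean and SD of the 3 libraries as a black mark and bar. Ifit1, Ifit3, Isg15, Ifi44, Oasl2 and Irf7 are highest in replicate 1 of WT and PS19 and replicate 3 of Tia1+/- and P301S Tia1+/-, whereas Ifit2 is separated between Tia1+/- and P301S Tia1+/-.

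Among the transcription factors, Irf7 and Irf8 varied the most. Irf7, which amplifies interferon alpha production, was at 2.80, 2.28 and 1.37 CPM in WT replicates 1 to 3, at 1.45, 0.460 and 1.74 CPM in Tia1+/-, at 5.92, 1.60 and 0.843 CPM in PS19 and at 1.13, 2.10 and 3.87 CPM in P301S Tia1+/-. Irf8, a factor of microglia and other myeloid cells, was at 10.7 CPM in PS19 replicate 1 and at 2.23 to 5.61 CPM elsewhere. Stat2, a subunit of the interferon-activated complex, was at 12.3, 14.2 and 14.6 CPM in WT, at 19.9, 18.7 and 15.3 CPM in Tia1+/-, at 18.0, 12.6 and 14.5 CPM in PS19 and at 14.97, 14.9 and 16.4 CPM in P301S Tia1+/-. It was the 1 member highest in Tia1+/- replicate 1, and all Tia1+/- libraries were above all WT libraries. Its partner Irf9 ranged from 6.62 to 15.9 CPM. Irf3, which the sensors activate and interferon does not induce, ranged from 10.8 to 18.4 CPM and Irf1 from 4.97 to 9.40 CPM. Of the RNA sensors, Ddx58 (RIG-I) ranged from 4.21 to 11.7 CPM with the 4 high libraries at the top, whereas Ifih1 (MDA5) ranged from 7.02 to 15.6 CPM and was low, at 7.09 CPM, in Tia1+/- replicate 3.

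The genes of antigen presentation were led by PS19 replicate 1 and P301S Tia1+/- replicate 3. B2m was at 92.8, 59.3 and 69.8 CPM in WT replicates 1 to 3, at 54.4, 65.8 and 66.5 CPM in Tia1+/-, at 125, 54.7 and 61.1 CPM in PS19 and at 61.3, 59.3 and 74.4 CPM in P301S Tia1+/-. H2-K1, a class I heavy chain, was at 29.1, 11.4 and 13.6 CPM in WT, at 16.6, 19.1 and 25.6 CPM in Tia1+/-, at 30.8, 4.80 and 13.2 CPM in PS19 and at 14.4, 30.5 and 46.8 CPM in P301S Tia1+/-. PS19 replicate 2 was the lowest library for H2-K1 and, at 3.84 CPM, for H2-D1. Its B2m, at 54.7 CPM, was close to the lowest, 54.4 CPM in Tia1+/- replicate 1. H2 genes have close copies and differ between strains, and the PS19 line is not pure C57BL/6J, so the counts of H2-K1 and H2-D1 are uncertain. Psmb8, a subunit of the immunoproteasome, ranged from 1.86 to 8.26 CPM and Tap1, a peptide transporter, from 1.39 to 5.53 CPM.

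P301S tau on the Tia1+/+ background was addressed by PS19 against WT. The members leaned slightly higher in PS19, with 28 of 35 log2 fold changes above 0 and a median of 0.16, against -0.01 over all genes, and the members' values ran from -0.29 to 1.91. No member passed an adjusted p of 0.05 by edgeR's quasi-likelihood test (0% of all genes did), 1 member, Rsad2, had an unadjusted p under 0.05 (16.3% of all genes), and DESeq2 called 0 members (2.77% of all genes). No member had groups that did not overlap, beside 9.75% of genes higher and 11% lower. Rsad2 had a log2 fold change of 1.29 ± 0.57 (SE, n = 3 per group), with an adjusted p of 0.294, and Ifi44 of 1.91 ± 0.88, with an adjusted p of 0.308. The members' median depended on single libraries and on a covariate for olfactory bulb markers, with which it was 1.27. It was 0.65 without WT replicate 1 and -0.33 without PS19 replicate 1. Bulb markers differed most within WT and Tia1+/-, where the library high for the members was also the highest in bulb markers. All P301S Tia1+/- libraries were high in bulb markers and all PS19 libraries low. Values with the covariate, here and below, therefore extrapolate beyond levels that the groups share. Without PS19 replicate 1 the log2 fold change of Ifi44 was 0.51 and that of Rsad2 0.62, and Isg15 turned from 0.81 to -0.42. The 95% interval of a member's log2 fold change had a median width of 2.08.

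P301S tau on the Tia1+/- background was addressed by P301S Tia1+/- against Tia1+/-, where the members leaned furthest. Of the 35 members, 31 had a log2 fold change above 0, with a median of 0.42 against 0.01 over all genes. By edgeR no member passed (0% of all genes did), 2 members, Ifit2 and Ifitm3, had an unadjusted p under 0.05 (15.6% of all genes), and DESeq2 called 1 member, Ifit2, with an adjusted p of 0.0426 (2.53% of all genes). The lean turned with a covariate for olfactory bulb markers, to a median of -0.71. With the genotype entries in place of the titles the 2 groups are exchanged, so every sign turns by construction, and the median was -0.42. Ifit2 had a log2 fold change of 0.63 ± 0.17 (SE, n = 3 per group) and an adjusted p of 0.184 by edgeR, and it was the 1 member with groups that did not overlap, higher in P301S Tia1+/-, beside 14.9% of genes higher and 11.1% lower. Ifitm3 had a log2 fold change of 1.16 ± 0.52 (adjusted p of 0.319), Mx2 of 1.14 ± 0.65 (adjusted p of 0.418) and Irf7 of 0.96 ± 0.73 (adjusted p of 0.543). These 3 were below 0 with the covariate, whereas Ifit2 was at 0.24 with it. By the exchange of the groups, Ifit2 was at -0.63 with the genotype entries. Ifit2 passed in a fit on these groups alone (0.62, adjusted p of 0.0233, with 2.22% of all genes passing), but not with the replicate block in that fit (0.62, adjusted p of 0.0533). It also passed, with 6.11% of all genes, at an adjusted p of 0.0234 without WT replicate 1, which enters mainly through the shared estimate of spread. With WT replicate 1 and Tia1+/- replicate 3 left out, which stood apart from their group mates in bulb or striatal markers, and the bulb-rich P301S Tia1+/- libraries kept, the median was 0.70 and 4 of 35 members passed: Ifit2, Parp14, Mx2 and Ifitm3, with adjusted p from 0.0100 to 0.0362. In that fit 23.4% of all genes passed, so the members passed no more often than genes at large. That fit removes the library in which most members were high among the Tia1+/- libraries.

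Averaged over the Tia1 genotypes, P301S tau against none gave 32 of 35 members above 0, with a median of 0.28 against -0.01 over all genes. No member passed by edgeR (0% of all genes did), none had an unadjusted p under 0.05 (8.39% of all genes), and DESeq2 called 0 (0.489% of all genes). With the genotype entries the median was -0.05. Ifi44 had the highest log2 fold change, 1.13 ± 0.63, with an adjusted p of 0.681. Without PS19 replicate 1 the median was 0.01 and Ifi44 stood at 0.42, and the median was 0.56 without WT replicate 1 and 0.48 without Tia1+/- replicate 3. With WT replicate 1 and Tia1+/- replicate 3 both left out, 6 of 35 members passed, Ifit1, Usp18, Parp14, Mx2, Ifitm3 and Ifi44, as did 14% of all genes, with log2 fold changes from 0.94 to 2.23 and adjusted p from 0.0233 to 0.0479. The groups without tau have then lost their high libraries and the tau groups have kept theirs.

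**Figure D4:**
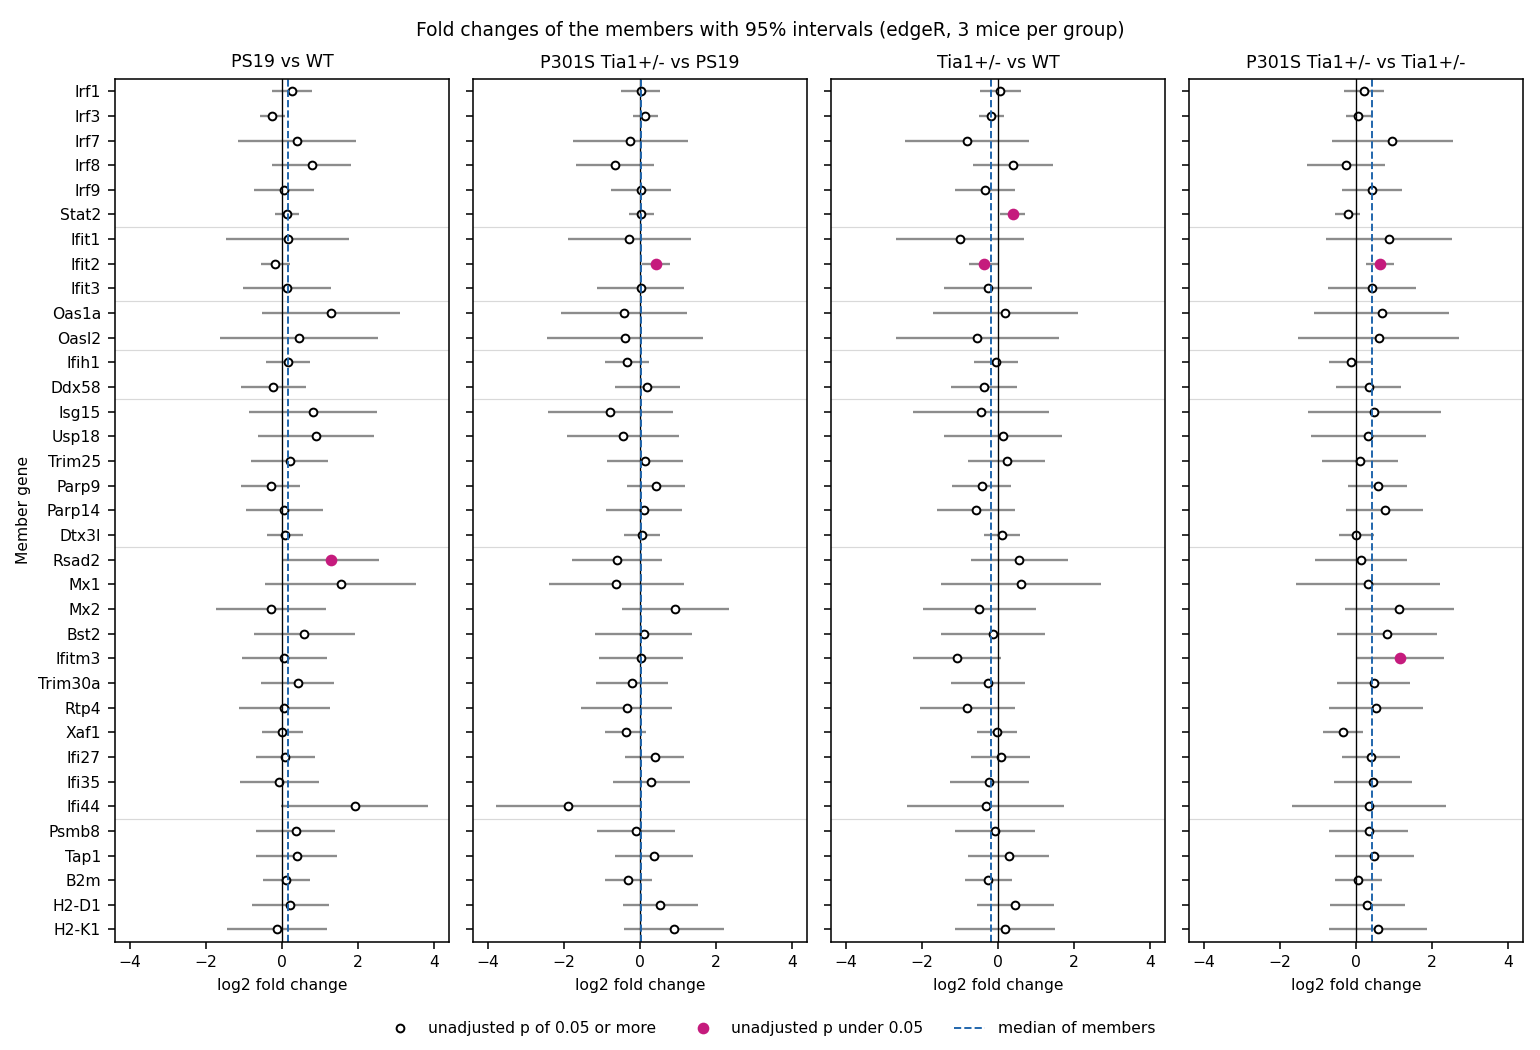
Log2 fold change (x axis) of each member (y axis) in 4 comparisons, with 95% intervals from edgeR on 3 mice per group. Filled points mark an unadjusted p under 0.05, and no member had an adjusted p under 0.05, and the dashed line is the median of the members, at 0.16, 0.02, -0.17 and 0.42 from left to right.

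Loss of 1 Tia1 allele without tau was addressed by Tia1+/- against WT. The members leaned lower, with 13 of 35 above 0 and a median of -0.17 against 0.01 over all genes. No member passed by edgeR (0.712% of all genes did), 2 had an unadjusted p under 0.05 (19.1% of all genes), and DESeq2 called 0 (6.59% of all genes). The median turned to 0.61 with the bulb covariate and to 0.17 with the genotype entries. Stat2 had a log2 fold change of 0.39 ± 0.15 (SE, n = 3 per group; adjusted p of 0.187) and was the 1 member with all Tia1+/- libraries above WT, beside 9.6% of all genes. Ifit2 had -0.38 ± 0.17 (adjusted p of 0.257) and was the 1 member with all Tia1+/- libraries below WT, beside 10.4% of all genes. Ifitm3 stood at -1.07 ± 0.53 (adjusted p of 0.297), but at 0.15 with the covariate and 0.086 with the genotype entries, with which Ifit2 stood at 0.25. The median turned to 0.29 without WT replicate 1 and was -0.52 without Tia1+/- replicate 3, and without WT replicate 1 Ifit2 stood at -0.16 and Ifitm3 at -0.35.

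Loss of 1 Tia1 allele with tau was addressed by P301S Tia1+/- against PS19. The members were balanced, with 19 of 35 above 0 and a median of 0.02 against 0.01 over all genes. No member passed by edgeR (0.24% of all genes did), 1 had an unadjusted p under 0.05 (19.3% of all genes), and DESeq2 called 0 (5.28% of all genes). The balance did not hold with the bulb covariate, where the median was -1.39, or with the genotype entries, where it was -0.38. That member, Ifit2, had a log2 fold change of 0.43 ± 0.17 (SE, n = 3 per group; adjusted p of 0.215) and was the 1 with groups that did not overlap, higher in P301S Tia1+/-, beside 20.2% of genes higher and 18.2% lower. It stood at -0.029 with the covariate and -0.21 with the genotype entries. Ifi44 had the lowest value, -1.89 ± 0.86 (adjusted p of 0.261), and stood at -0.51 without PS19 replicate 1. Leaving out PS19 replicate 1 gave a median of 0.45, and leaving out P301S Tia1+/- replicate 3 gave -0.29. With WT replicate 1 and Tia1+/- replicate 3 left out of the shared estimate of spread, Ifit2 (0.40, adjusted p of 0.0398) and Ifi44 (-1.93, adjusted p of 0.0465) passed, as did 22.9% of all genes.

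Averaged over tau genotypes, Tia1+/- against Tia1+/+ gave 11 of 35 members above 0 and a median of -0.10, against 0.02 over all genes. No member passed by edgeR (0.44% of all genes did), none had an unadjusted p under 0.05 (15.6% of all genes), and DESeq2 called 0 (4.87% of all genes). The median turned to 0.18 without PS19 replicate 1 and to 0.13 without WT replicate 1. Stat2 stood at 0.21 ± 0.10, with an adjusted p of 0.358. The interaction asks whether the difference made by tau depends on the Tia1 genotype. No member passed by edgeR (0.00648% of all genes did), 1 had an unadjusted p under 0.05 (22.9% of all genes), and DESeq2 called 1 (7.63% of all genes), in each case Ifit2. The log2 interaction of Ifit2 was 0.81, with a 95% interval from 0.28 to 1.34 and an adjusted p of 0.0999 by edgeR and 0.0413 by DESeq2. It was 0.09 with the bulb covariate and -0.46 with the genotype entries. The median interaction of the members was 0.10, 0.69 without PS19 replicate 1, -0.27 without WT replicate 1, -1.80 with the covariate and -0.56 with the genotype entries.

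In each of the 4 high libraries, the sums of microglial, astrocyte and meningeal markers were the highest of the group, by margins that differed. Of 10 microglial markers, all tested, the sum was 730 CPM in PS19 replicate 1 and 522 CPM in Tia1+/- replicate 3, against 342 to 371 CPM in WT and 421 to 448 CPM in P301S Tia1+/-. PS19 replicate 2 had 503 CPM of them and PS19 replicate 3 had 416 CPM. The members' median difference from their means over the libraries was -0.26 log2 units in PS19 replicate 2 and -0.38 in PS19 replicate 3. Microglial markers summed to 371 CPM in WT replicate 1 and to 342 and 366 CPM in its group mates. Of 6 astrocyte markers, the sum was highest in WT replicate 1 (1821 CPM), PS19 replicate 1 (1768 CPM) and P301S Tia1+/- replicate 3 (1542 CPM), with 1312 CPM in Tia1+/- replicate 3. Of 5 markers of meningeal fibroblasts, the sum was 192 CPM in P301S Tia1+/- replicate 3 and 134 CPM in WT replicate 1. It was 18.2 to 48.5 CPM in Tia1+/- and 23.5 to 60.5 CPM in PS19. Of 4 choroid plexus markers, 2 of which passed the filter, the sum was 45.2 CPM in PS19 replicate 1 and 1.57 to 18.5 CPM in the WT, Tia1+/- and P301S Tia1+/- libraries. Of 7 endothelial markers, the sum was 148 to 194 CPM in all libraries. Of 5 blood markers, Alas2 had 23 to 73 counts in a library, and both alpha globin genes and 2 beta globin genes were listed at 0 in every library. The globin genes have close copies, and how reads with several alignments were counted is not given, so these zeros are no measure of blood. Of 7 leukocyte markers, the sum was 1.70 to 8.57 CPM, and Cd3e of T cells was at 0 in 11 libraries. Of 6 neuronal markers, the sum was 4994 to 7542 CPM and was the lowest of the group in each of the 4 high libraries. It was 5908 CPM in WT replicate 1, 4994 in Tia1+/- replicate 3, 5945 in PS19 replicate 1 and 5637 in P301S Tia1+/- replicate 3. Single markers differed, as Gad1 had 15265 counts in WT replicate 1 and 5206 and 5222 in its mates. Of 5 oligodendrocyte markers, the sum was 1598 CPM in WT replicate 1 and 2049 to 3761 CPM elsewhere. The part of any of these cells, of the olfactory bulb or striatal content, or of depth in the members' levels was not tested.

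**Figure D5:**
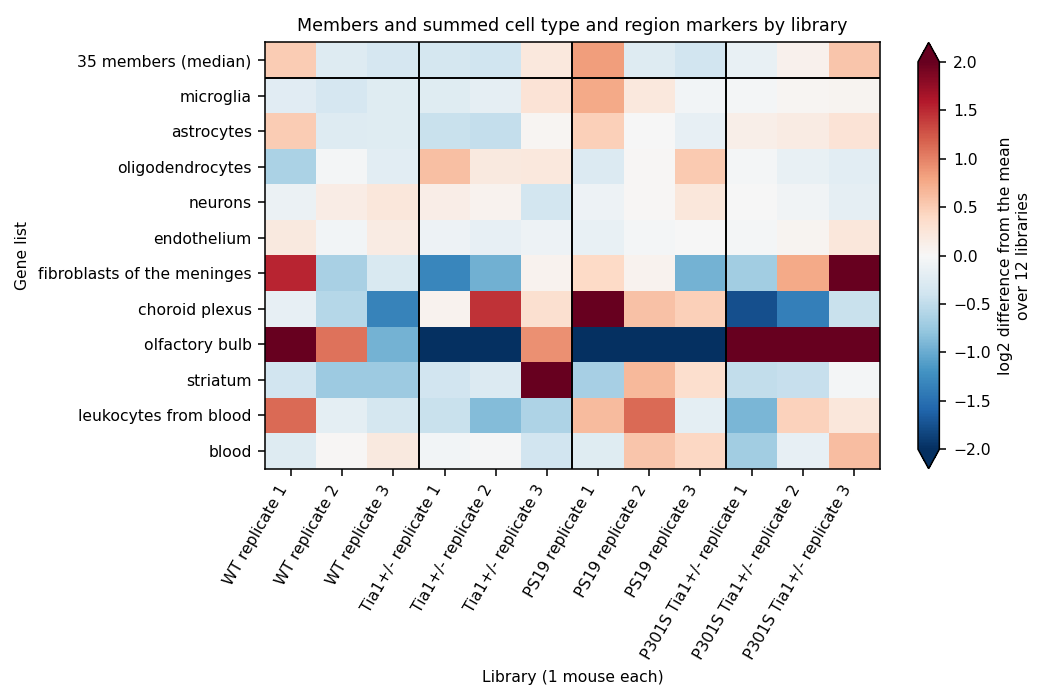
Median of the 35 members (top row) and summed CPM of 11 marker lists (other rows) in the 12 libraries (columns), coloured by the log2 difference from the row's mean, with the darkest shades at a difference of 2 or more. PS19 replicate 1 and Tia1+/- replicate 3 are the highest for microglial markers, WT replicate 1 and PS19 replicate 1 for astrocyte markers, and P301S Tia1+/- replicate 3 and WT replicate 1 for meningeal markers.

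Other genes of the pathway were read from fixed lists. Of 20 genes of receptors and signalling, all tested, 0 passed in any of the 7 comparisons by edgeR. In each, 2 to 4 had an unadjusted p under 0.05, and DESeq2 called 0 to 2. Over all genes the shares in the 7 comparisons were 8.39% to 22.9% unadjusted and 0.489% to 7.63% by DESeq2. The median deviation of these 20 genes from the mean over libraries was 0.08 log2 units in PS19 replicate 1 and 0.07 in WT replicate 1, where the members' were 0.83 and 0.51. Of 53 further effectors tested (67 listed), 0 passed in any comparison by edgeR, 1 to 4 had an unadjusted p under 0.05 in each, and DESeq2 called 0 or 1. They followed the members, with PS19 replicate 1 the highest library of 20 (6.26% of all genes) and WT replicate 1 of 17 (20.6% of all genes). Ifitm1, a close relative of Ifitm3, had the smallest p of them in P301S Tia1+/- against Tia1+/-, with a log2 fold change of 1.39 ± 0.45 and an adjusted p of 0.224.

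Of 19 sensors and adaptors tested (22 listed), 1 passed by edgeR, in Tia1+/- vs WT (0.712% of all genes) and in the average for Tia1 (0.44% of all genes). In each comparison 1 to 5 had an unadjusted p under 0.05 and DESeq2 called 0 to 2. Over all genes the shares in the 7 comparisons were 8.39% to 22.9% unadjusted and 0.489% to 7.63% by DESeq2. Nlrx1, a mitochondrial protein that restrains antiviral signalling, was at 2.72, 3.64 and 3.80 CPM in WT, at 7.87, 7.23 and 6.96 CPM in Tia1+/-, at 6.18, 6.40 and 5.90 CPM in PS19 and at 6.60, 6.54 and 8.03 CPM in P301S Tia1+/-. It was low in the 3 WT libraries and was 2.17-fold higher in Tia1+/- than in WT (log2 fold change of 1.12 ± 0.17, adjusted p of 0.0272). It was also higher in the average over tau genotypes (0.66 ± 0.11, adjusted p of 0.0423). With tau the groups were closer, at 6.54 to 8.03 CPM in P301S Tia1+/- and 5.90 to 6.40 CPM in PS19. There Nlrx1 was not among the 3 of its list with the smallest p. In PS19 vs WT and in the interaction Nlrx1 had the smallest p of its list, without passing by edgeR. Against WT it missed the threshold when WT replicate 1 or 2, any Tia1+/- replicate, PS19 replicate 2 or P301S Tia1+/- replicate 2 was left out, with adjusted p up to 0.124 and log2 fold changes from 0.99 to 1.22 over all such fits. Over both tau genotypes it missed the threshold when any library but WT replicate 1 or 3 was left out, with adjusted p up to 0.132. Of 20 further genes of class I presentation tested (27 listed), 1 passed by edgeR, beside 0.44% of all genes. In each comparison 0 to 3 had an unadjusted p under 0.05 and DESeq2 called 0 to 2, with the same shares over all genes. Pdia3, a chaperone of the peptide-loading complex, was 1.22-fold lower in Tia1+/- over both tau genotypes (log2 fold change of -0.29 ± 0.05, adjusted p of 0.0450). It was at 218 to 250 CPM in WT, 174 to 188 CPM in Tia1+/-, 185 to 196 CPM in PS19 and 155 to 167 CPM in P301S Tia1+/-. Pdia3 was thus also lower with tau on both backgrounds. It had the smallest p of its list in both of those comparisons and in the average for tau, without passing by edgeR. In the average for Tia1 it too missed the threshold when any library but WT replicate 1 or 3 was left out, with adjusted p up to 0.147. Cmpk2, which supplies nucleotides in mitochondria, stood at 0.52 ± 0.14 in Tia1+/- against WT, with an adjusted p of 0.0884.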

How the data were processed

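RNA of the cortex was extracted by the authors with Qiazol and RNeasy, made into libraries with the TruSeq Stranded Total kit and sequenced paired-end on a HiSeq 2000. The authors aligned reads to mm10 with TopHat and deposited raw read counts per gene from featureCounts. The annotation, the strand setting and the treatment of reads with several alignments are not given in the sources used here. 3287 rows without any count were in the table, and all 12 columns were matched to samples by name.

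Counts were tested with edgeR 4.0.16 in R 4.3.3 (TMM, filterByExpr with a minimum count of 10, quasi-likelihood F test, a mean for each of 4 groups over 12 libraries), with Benjamini-Hochberg adjustment over all 15440 genes tested and a threshold of 0.05. DESeq2 1.42.0 was an alternative, as were other scalings and filters, left-out libraries, a replicate block, an olfactory bulb covariate and the genotype entries. Scripts were tested on simulated data. For plots and ranks, 0.5 was added to CPM before log2. No pair of replicates agreed within sampling noise. An exact permutation test of 3 against 3 cannot go below 0.1 (two-sided), so none was used.

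Same-numbered libraries of different groups were compared by the correlation of their deviations from group means: 7 of 18 pairs were above 0.1 (median -0.06). All 3 pairs of Tia1+/- with P301S Tia1+/- were above 0.1 (0.123 to 0.240), and there the block ended the call of Ifit2 in the fit on these groups alone, with an adjusted p of 0.0233 without it and 0.0533 with it, and called 0 members over 12 libraries, as did the fit without it.

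The list of members, the pathway lists and the markers were drawn up with earlier results of these data known. All 35 members were to be accounted for, and from each pathway list the genes that passed, or otherwise at most 3 with the smallest p, were to be named. Other genes named were chosen after their values were seen. Exon lengths are from GENCODE M21 and promoter sequences from RefSeq on GRCm38.p6.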

Additional observations from a re-analysis of the deposited data

Results flagged for a closer look

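Ifit2 was singled out because the difference made by the loss of 1 Tia1 allele had opposite directions without and with P301S tau. It was 21.5 ± 0.643 CPM (SD, n = 3) in Tia1+/- against 28.0 ± 6.59 CPM in WT, and 33.4 ± 1.71 CPM in P301S Tia1+/- against 24.8 ± 5.18 CPM in PS19. The interaction was 0.81 on the log2 scale. It missed the threshold by edgeR (adjusted p of 0.0999) and passed by DESeq2 (adjusted p of 0.0413), and it lay between 0.58 and 0.96 when single libraries were left out. It was 0.09 with an olfactory bulb covariate and turned to -0.46 with the genotype entries in place of the titles. Xist and the Y-linked gene followed the Tia1 genotype in these libraries and olfactory bulb markers were high in all P301S Tia1+/- libraries, and their part was not tested.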

How the results depend on the processing

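With 3 mice per group, the 95% intervals of the members had median widths of 1.46 to 2.93 log2 units over the 7 comparisons, which limits what could be detected in most of them. The replicate block called 1 member in P301S Tia1+/- vs PS19 when fitted on those groups only (Ifit2, 0.44, adjusted p of 0.0377), where same-numbered libraries did not deviate together (-0.141 to -0.00866), and 16.2% of all genes. Against the fit of like form it took the count in P301S Tia1+/- vs Tia1+/- from 1 to 0 (Ifit2, adjusted p of 0.0533), and it changed no other count of members. Under the block Nlrx1 and Pdia3 did not pass. DESeq2 called 1 member in P301S Tia1+/- vs Tia1+/- and 1 in the interaction, and a fit on the compared groups only called 1 in P301S Tia1+/- vs Tia1+/-. Over all genes edgeR called 0, 37, 110, 0, 1, 0 and 68 in PS19 vs WT, P301S Tia1+/- vs PS19, Tia1+/- vs WT, P301S Tia1+/- vs Tia1+/-, the interaction, the average for tau and the average for Tia1, and DESeq2 called 431, 821, 972, 403, 1216, 76 and 622. Without WT replicate 1 and Tia1+/- replicate 3 together, members called were 2 in P301S Tia1+/- vs PS19, 4 in P301S Tia1+/- vs Tia1+/- and 6 in the average for tau, and the median in PS19 vs WT was 0.66.

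With an olfactory bulb covariate, medians were 1.27 in PS19 vs WT, -1.39 in P301S Tia1+/- vs PS19, 0.61 in Tia1+/- vs WT, -0.71 in P301S Tia1+/- vs Tia1+/- and -1.80 in the interaction. Bulb markers were bound up with group and with the libraries high for the members, so these values are extrapolations and no corrected estimates. The covariate turned Ifit2 in P301S Tia1+/- vs PS19 to -0.029, Ifitm3 in Tia1+/- vs WT to 0.15, and, in P301S Tia1+/- vs Tia1+/-, Ifitm3 to -0.56, Irf7 to -0.11, Mx2 to -0.95 and Parp14 to -0.83. Grouping by the genotype entries exchanges Tia1+/- and P301S Tia1+/-, which by construction turns that comparison: its median was -0.42, with Ifit2 at -0.63, Ifitm3 at -1.16, Irf7 at -0.96, Mx2 at -1.14, Parp14 at -0.75 and Ifitm1 at -1.39. The interaction then had a median of -0.56 and Ifit2 at -0.46. Ifit2 was at -0.21 in P301S Tia1+/- vs PS19 and 0.25 in Tia1+/- vs WT, Ifitm3 at 0.086 in the latter, and Ifit1, Parp14, Mx2 and Ifitm3 at -0.36, -0.34, -0.71 and -0.55 in the average for tau.

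When single libraries were left out, medians ran from -0.33 to 0.65 in PS19 vs WT and from -0.27 to 0.69 in the interaction, members called from 0 to 1 in P301S Tia1+/- vs Tia1+/-, Ifit1 in PS19 vs WT from -0.75 to 1.44 and Isg15 from -0.42 to 1.39. Of the values of named genes under the alternatives, 504 kept their direction and side of the threshold, 34 no longer passed, 24 newly passed and 24 changed direction. For the covariate and the tests other than edgeR, the cause was not tested.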

Other observations

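Genes of MHC class II, which professional antigen-presenting cells display to helper T cells, were also high in PS19 replicate 1. PS19 replicate 1 was among the 4 highest libraries for 11 of 11 genes tested and P301S Tia1+/- replicate 3 for 7, against 29.2% and 39.8% of all genes. Cd74, the invariant chain, was at 9.44, 1.69 and 1.83 CPM in WT replicates 1 to 3, at 0.897, 0.985 and 3.48 CPM in Tia1+/-, at 42.8, 4.72 and 2.47 CPM in PS19 and at 1.38, 3.66 and 7.26 CPM in P301S Tia1+/-. None of the 11 passed in any of the 7 comparisons by edgeR or DESeq2, with 0 to 3 at an unadjusted p under 0.05 (8.39% to 22.9% of all genes). H2-Ea-ps, a pseudogene whose intact form depends on the strain, was at 0.152 to 1.28 CPM in WT and 0.422 to 3.01 CPM in PS19, at 0 in the 3 Tia1+/- libraries and at 0.189, 0 and 0 CPM in P301S Tia1+/-.

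Herc6, a ligase for ISG15 in mice, did not follow the members. It was at 17.0, 42.6 and 43.0 CPM in WT, at 22.9, 21.2 and 7.09 CPM in Tia1+/-, at 35.9, 37.8 and 42.9 CPM in PS19 and at 15.3, 17.7 and 14.1 CPM in P301S Tia1+/-. Its log2 fold change for Tia1+/- over both tau genotypes was -1.16 ± 0.29 (adjusted p of 0.103 by edgeR). In the 20 alternative fits, by edgeR or DESeq2, it stayed below 0, at -1.31 to -0.66, with adjusted p from 2.06e-05 to 0.249. The library of each group that was high for most members was the lowest of its group for Herc6.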
